A study of Homo sapiens with 4 samples.

Results

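The genes described here are 30 genes of prostate luminal identity and androgen response, out of 60617 gene IDs measured. They were chosen as a named group, with earlier results of these data known but with no rule on their values, and each was found by matching its symbol to an Ensembl ID in the deposited gene table. By role they are 3 kallikreins, 9 other enzymes and regulators known as androgen receptor targets, 4 transcription factors of luminal epithelium, 8 cell surface and transport genes and 6 secreted or metabolic genes. HERC3 alone was on 2 IDs, and its second ID was at 0.522 FPKM or less in every library and was not used.

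RNA-seq was made from 4 libraries of 2 human prostate cancer lines, with 1 library per group: 22Rv1 untreated, 22Rv1 with 75 µM morusin, PC3 untreated and PC3 with 46 µM morusin, the exposure lasting 6 h. Morusin is a prenylated flavone of mulberry root bark. 22Rv1, a line grown out of a xenograft, makes androgen receptor protein including truncated forms, and PC3, from a bone metastasis, grows without androgen and makes little or none of the receptor. All cultures had heat-inactivated serum and the same antibiotics, but 22Rv1 was in RPMI and PC3 in F12 medium, so line, medium and dose cannot be told apart.

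The androgen receptor is a steroid-activated transcription factor. It binds DNA at paired copies of a short element, usually where FOXA1 has opened the chromatin and often with HOXB13, and in prostate it drives luminal cells to make kallikreins and other secreted proteins. Its best-known targets serve as clinical readouts: KLK3 encodes prostate-specific antigen, and TMPRSS2 lends its promoter to a common gene fusion. Several targets, such as FKBP5, also respond to the glucocorticoid receptor, which recognises nearly the same DNA element.

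RefSeq promoter windows (GRCh38.p14, 250 bases before to 50 after a start) were found for 23 of the 30 genes. ELL2, FOLH1, HOXB13, SORD, TMPRSS2, TPD52 and ZBTB10 were the others. The promoters of KLK3, KLK2, KLK4 and FKBP5 are shown because the kallikreins and FKBP5 are classic receptor targets that separated the lines widely. Each runs 5′ to 3′ on the gene's strand and ends 20 bases after the start. They lie at chr19:50854665-50854934 (KLK3, plus strand), chr19:50873189-50873458 (KLK2, plus strand), chr19:50910719-50910988 (KLK4, minus strand) and chr6:35728564-35728833 (FKBP5, minus strand), and KLK2's RefSeq start lies inside the longer GENCODE 29 span of that gene. Capitals mark the receptor half-site AGAACA, the kallikrein element GAACANNNAGTGCT and the motif TATAAA of the TATA box, each searched on both strands. On the other strand TATAAA reads as TTTATA, which is how it appears in KLK3 and KLK2.
KLK3: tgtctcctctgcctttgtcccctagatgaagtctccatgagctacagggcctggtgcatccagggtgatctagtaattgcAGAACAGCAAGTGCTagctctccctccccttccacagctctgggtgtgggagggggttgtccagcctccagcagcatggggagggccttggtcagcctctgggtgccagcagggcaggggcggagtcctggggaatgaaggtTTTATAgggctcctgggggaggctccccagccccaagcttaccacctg
KLK2: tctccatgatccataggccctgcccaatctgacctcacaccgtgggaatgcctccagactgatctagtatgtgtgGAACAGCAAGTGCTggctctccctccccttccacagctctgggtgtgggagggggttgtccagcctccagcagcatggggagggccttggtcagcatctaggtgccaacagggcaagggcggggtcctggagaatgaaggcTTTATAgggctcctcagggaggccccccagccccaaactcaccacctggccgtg
KLK4: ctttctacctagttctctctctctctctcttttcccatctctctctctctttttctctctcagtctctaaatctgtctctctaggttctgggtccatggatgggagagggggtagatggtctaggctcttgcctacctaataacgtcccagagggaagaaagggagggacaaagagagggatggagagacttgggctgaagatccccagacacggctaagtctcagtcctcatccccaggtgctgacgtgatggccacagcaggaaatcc
FKBP5: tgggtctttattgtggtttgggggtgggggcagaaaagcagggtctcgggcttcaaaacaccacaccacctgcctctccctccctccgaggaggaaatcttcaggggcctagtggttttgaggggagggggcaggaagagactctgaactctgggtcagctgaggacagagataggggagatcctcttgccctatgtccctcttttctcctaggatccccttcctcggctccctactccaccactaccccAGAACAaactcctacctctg

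The kallikrein element was present in the KLK3 and KLK2 windows and in 0.0427% of all 35116 promoter windows (15 windows). Its pattern leaves out a base at which KLK3 and KLK2 differ, so the match in both describes letters and tests nothing. With the base before it, the element read AGAACAGCAAGTGCT in KLK3, with its first base at -170 from the start, and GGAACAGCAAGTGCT in KLK2, with its first base at -176. They differed by A1G, counted from 1 at the element's 5′ end with the KLK3 base first. In KLK3 this stretch therefore also holds the half-site, which overlaps the element and which KLK2 lacks there. Over the whole windows, KLK2 and KLK3 were identical at 81.7% of 300 bases (245 bases). The KLK4 window held none of the motifs searched.

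AGAACA was in 14.8% of all windows and, among these genes, in those of FKBP5, KLK3, PMEPA1 and TRPM8. In FKBP5 it began at the start itself. The full palindrome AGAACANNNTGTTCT was in 1 window of all 35116 and in none of the genes described. The forkhead motif TGTTTAC was in 3.42% of windows and in STEAP2. TATAAA was in 11.5% of windows and in KLK2, KLK3, MAF, STEAP2 and TRPM8. A match describes the letters in a window and does not show binding.

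Levels are given in FPKM, fragments per kilobase of transcript, scaled to each library's total. In untreated 22Rv1, 20 of the 30 genes were at 10 FPKM or more and 5 were under 1. In untreated PC3, 9 were at 10 FPKM or more and 12 were under 1. The median over the 30 genes was 36.0 FPKM without and 25.7 with morusin in 22Rv1, and 3.46 without and 2.03 with it in PC3. KLK4 (288 FPKM), FKBP5 (274) and FOXA1 (160) were the highest in untreated 22Rv1. HOXB13 (175 FPKM), TPD52 (68.3) and NCOA4 (35.9) were the highest in untreated PC3. EAF2, MAF, STEAP4, TRPM8 and GUCY1A1 were under 1 FPKM in both untreated lines.

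**Figure D1:**
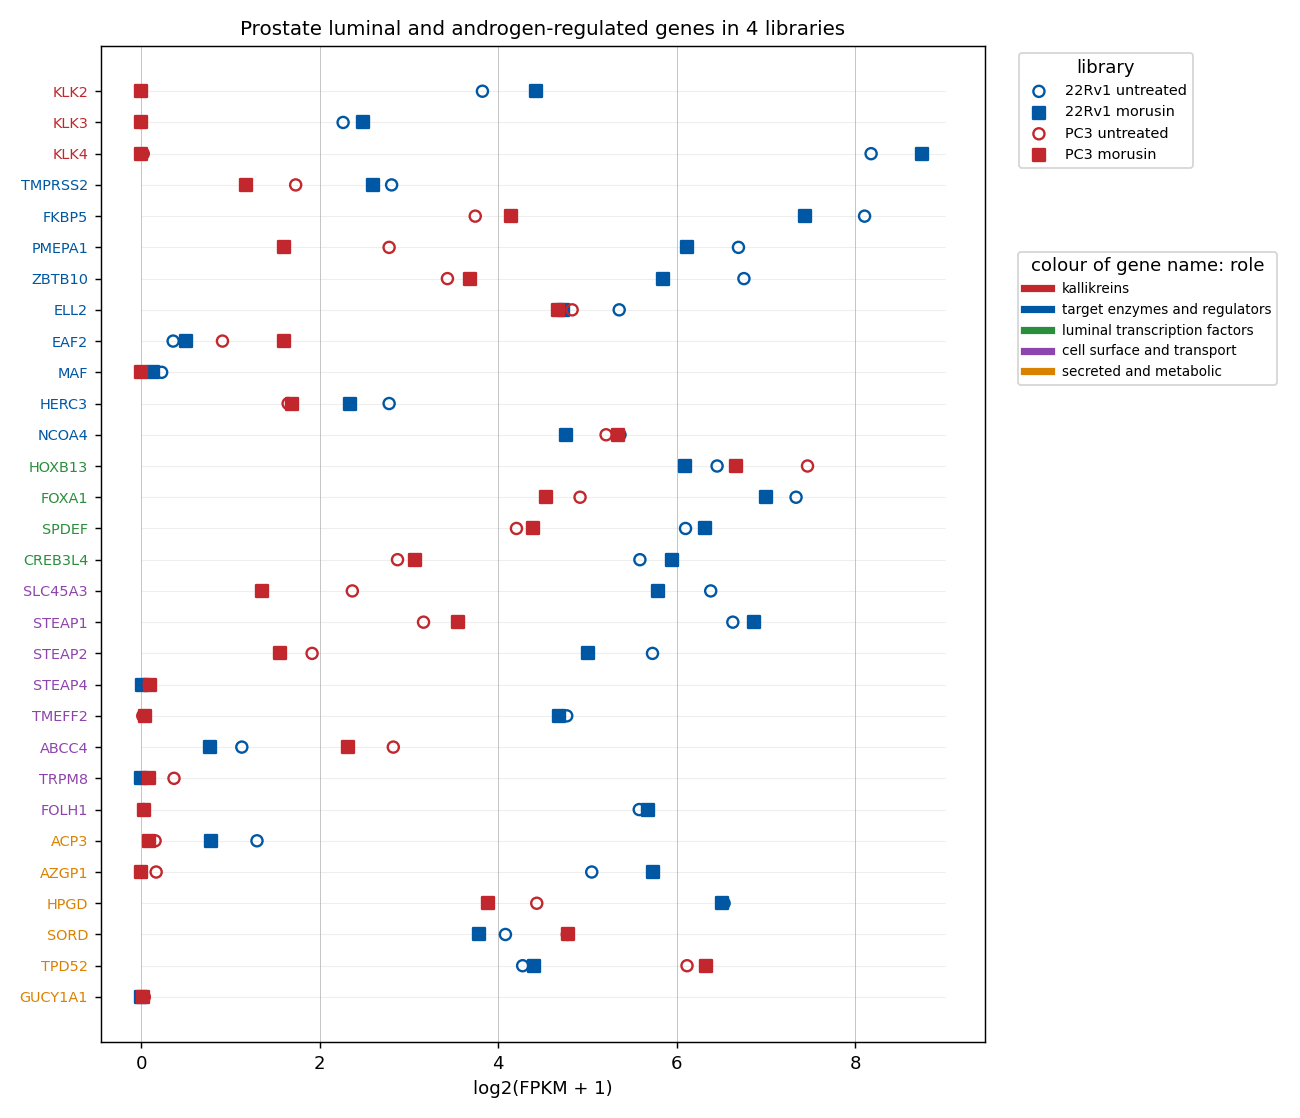
Level of each of the 30 genes as log2(FPKM + 1) in the 4 libraries; open circles are untreated, filled squares morusin, blue 22Rv1 and red PC3, with 1 library each and no error bar. KLK4 lies at 288 and 429 FPKM in 22Rv1 and at or near 0 in PC3, while HOXB13, ABCC4, SORD and TPD52 lie higher in PC3.

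The libraries differed in more than these genes. Depth, estimated from the smallest steps of the values, was 19.1 to 40.6 M read pairs (M, mega), so that a transcript of 2 kb at 1 FPKM rests on 38.2 to 81.1 pairs. Mitochondrially encoded RNA was 6.33% of the FPKM in untreated and 3.13% in treated 22Rv1, and 4.43% and 2.53% in PC3. Small nuclear and miscellaneous RNA was 0.0681% and 1.12% in 22Rv1, and 0.0695% and 0.159% in PC3. Short transcripts had higher treated values than long ones in both lines, which is described beside the responses. Their part in the results below was not tested. Both lines had the luminal keratins KRT8 (107 and 125 FPKM untreated, 22Rv1 first) and KRT18 (103 and 111). The epithelial adhesion gene CDH1 was at 86.3 FPKM in untreated 22Rv1 and 0.190 in PC3.

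Untreated 22Rv1 held more of most of these transcripts than untreated PC3. Of the 30 genes, 25 reached 1 FPKM in at least 1 of these libraries, and 19 of them were at least 2-fold higher in 22Rv1 on the scale of FPKM + 1, against 19.8% of all 14363 genes that reached it. HOXB13, ABCC4 and TPD52 were at least 2-fold higher in PC3, against 19.2% of all genes. The median log2 difference was 2.42 over the 25 genes, 2.0 over all 30 and 0.11 over all genes. Genes that reach 1 FPKM in a single line must differ, and 7 of the 25 did so, all in 22Rv1. Among the 18 genes at 1 FPKM or more in both untreated lines, 12 were 2-fold higher or more in 22Rv1, and 3 were so in PC3, against 14.9% and 13.2% of 10954 genes. KLK3, TMPRSS2, HERC3, ACP3, HOXB13 and ABCC4 no longer passed 2-fold with a pseudocount of 5, nor did TMPRSS2 with differences centred on the median of all genes (0.97). In RNA from a whole culture, fewer cells with a transcript and less of it per cell cannot be told apart.

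Line differences were tested with limma over all 4 libraries, with line and treatment as terms, for genes at 1 FPKM or more in at least 2 libraries. With 1 residual degree of freedom the p-values rest mostly on the spread shared across genes. That residual is how far the change with morusin differs between the lines, not a spread between repeated libraries. A gene whose lines changed unlike each other has a larger error, as ZBTB10 (SE 0.27) and FKBP5 (SE 0.25) had. The labels do not describe the libraries as separate cultures. Of the 24 genes tested, 18 were higher in 22Rv1 and 4 in PC3 at a Benjamini-Hochberg adjusted p under 0.05. The same calls were made for 36.1% and 28.3% of all 13980 genes tested. ELL2 and NCOA4 were not called. Both libraries of a line lay above both of the other for all 22 called genes, 18 toward 22Rv1 and 4 toward PC3. This was also common over all genes tested, at 42.7% toward 22Rv1 and 34.2% toward PC3. KLK2, KLK3, KLK4, TMEFF2, FOLH1 and AZGP1 were under 1 FPKM in both PC3 libraries and passed the filter through 22Rv1 alone. Their order was fixed by that filter and tests nothing, and their limma calls are no separate support. With PC3 at or near 0, the size of their limma differences depends on the pseudocount.

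**Figure D2:**
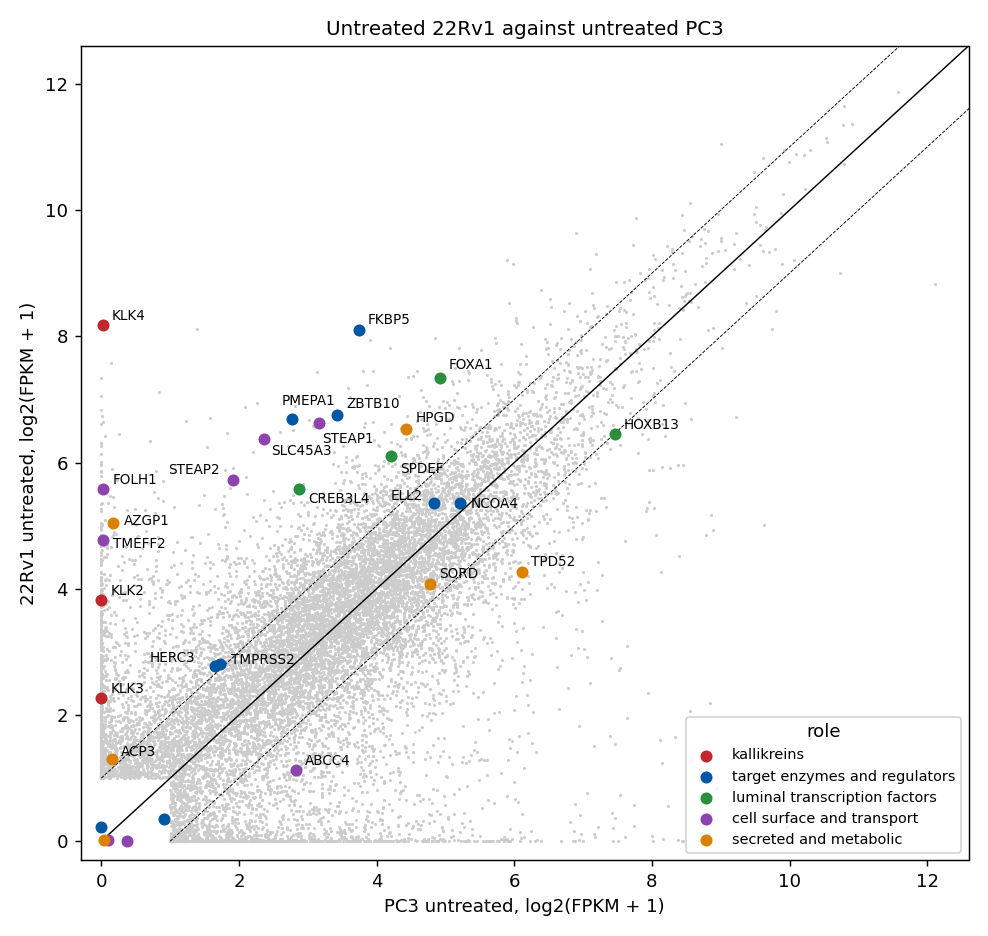
Untreated 22Rv1 against untreated PC3 as log2(FPKM + 1); each grey point is a gene at 1 FPKM or more in at least 1 of these libraries, coloured points are the genes described, by role, the solid line is equality and the dashed lines are 2-fold. Coloured points above the upper dashed line are the 19 genes higher in 22Rv1, and HOXB13, ABCC4 and TPD52 lie below the lower one.

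The 3 kallikreins, secreted serine proteases from neighbouring genes on chromosome 19, were detected in 22Rv1 and at or near 0 in PC3. KLK4 was at 288 FPKM in untreated and 429 in treated 22Rv1, and at 0.0173 and 0 in PC3. KLK2, which activates other kallikreins, was at 13.2 and 20.4 FPKM in 22Rv1 and listed at 0 in both PC3 libraries. KLK3 was at 3.80 and 4.59 FPKM in 22Rv1 and listed at 0 in both PC3 libraries. Both 22Rv1 values were above both PC3 values for each of the 3, as for 42.7% of all genes tested. That order was fixed in advance, since the 3 genes passed the limma filter through the 22Rv1 libraries alone. Per length, KLK4 was far above KLK2 and KLK3, so that the sum of the 3 genes (305 FPKM untreated) was almost all KLK4. The limma log2 difference between lines was 8.45 (SE 0.22, adjusted p = 3.09e-08) for KLK4, 4.12 (SE 0.23, adjusted p = 8.57e-07) for KLK2 and 2.37 (SE 0.17, adjusted p = 4.06e-06) for KLK3. No ratio is given for KLK4, since its PC3 value corresponds to an estimated 0.6 read pairs.

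Of the 12 other kallikrein genes, KLK1, the tissue kallikrein, was at 24.4 and 35.3 FPKM in 22Rv1 and at 0.107 and 0 in PC3. Of the other 11, KLK14 reached 1.01 FPKM in treated 22Rv1 and none went above that in any library. KLKP1, a kallikrein pseudogene of the same cluster, was at 3.34 and 4.06 FPKM in 22Rv1 and listed at 0 in PC3.

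In 22Rv1 the 3 kallikreins were higher in the treated than in the untreated library, with 1 library per group and therefore no test. The treated to untreated ratio of FPKM was 1.55 for KLK2, 1.49 for KLK4 and 1.21 for KLK3. The log2 changes of FPKM + 1 were 0.60, 0.57 and 0.22, all short of 2-fold. For KLK3 the counting error of the log2 ratio alone was 0.20, and its change was -0.02 once the trend on transcript length was removed. KLK2 (0.72) and KLK4 (0.17) stayed above 0 without that trend. Rescaling the libraries to equal sums left all 3 above 0.

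The second group holds enzymes and regulators that the receptor induces. FKBP5, an HSP90 co-chaperone that takes part in steroid receptor feedback, was at 274 and 172 FPKM in untreated and treated 22Rv1 and at 12.4 and 16.7 in PC3. PMEPA1, a membrane protein that dampens TGF-beta signalling, was at 102 and 68.1 FPKM in 22Rv1 and at 5.86 and 2.02 in PC3. ZBTB10, a zinc finger repressor, was at 107 and 56.3 FPKM in 22Rv1 and at 9.78 and 11.8 in PC3. The PC3 libraries were the low ones for each of these 3 genes. Untreated 22Rv1 was 22.1-fold above untreated PC3 in FPKM for FKBP5, 17.5-fold for PMEPA1 and 10.9-fold for ZBTB10. PMEPA1 shares 343 exon bases with its antisense gene NKILA (0.489 to 7.8 FPKM), and ZBTB10 shares 594 with AC009812.1 (0.307 to 1.94 FPKM), whose reads cannot be told apart without strand. Over all libraries the limma differences were 3.82 (adjusted p = 2.25e-06), 4.21 (adjusted p = 6.41e-07) and 2.74 (adjusted p = 2.51e-05) log2 units.

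TMPRSS2, a transmembrane serine protease, was at 5.99 and 5.05 FPKM in 22Rv1 and at 2.32 and 1.26 in PC3. HERC3, a ubiquitin ligase, was at 5.86 and 4.07 FPKM in 22Rv1 and at 2.13 and 2.22 in PC3. Both genes were higher in 22Rv1 in limma (1.25 log2 units, adjusted p = 0.000769, and 0.89, adjusted p = 0.00633). They lay just past the 2-fold line in the untreated libraries, at 1.07 and 1.13 log2 units. Between the treated libraries HERC3 differed by 0.65, and its limma call was lost with no filter on low values (adjusted p = 0.0724).

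ELL2, a transcription elongation factor, was at 39.9 and 25.4 FPKM in 22Rv1 and at 27.4 and 24.5 in PC3. NCOA4, a coactivator that also carries ferritin to lysosomes, was at 40.2 and 26.1 FPKM in 22Rv1 and at 35.9 and 39.5 in PC3. Their lines overlapped, and the limma differences were 0.29 (SE 0.20, adjusted p = 0.243) and -0.21 (SE 0.22, adjusted p = 0.427) log2 units. Untreated, NCOA4 was slightly higher in 22Rv1 (0.16), and treated it was lower there (-0.58). EAF2, a partner of ELL proteins, stayed under 1 FPKM in 3 libraries and was at 2.04 in treated PC3. MAF, a leucine zipper factor, was at 0.173 and 0.101 FPKM in 22Rv1 and listed at 0 in PC3.

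After morusin the 7 genes of this group that reached 1 FPKM in 22Rv1 were all lower in that line, by less than 2-fold. All 7 have long transcripts (median lengths of 2307 to 6046 bases). Most long genes were lower too, with 31.9% of all protein-coding genes of at least 2000 bases above 0 in 22Rv1. The log2 changes were -0.91 for ZBTB10, -0.66 for FKBP5, -0.63 for ELL2, -0.60 for NCOA4, -0.58 for PMEPA1, -0.44 for HERC3 and -0.21 for TMPRSS2. In FPKM, treated over untreated, ZBTB10 was at 0.527 and FKBP5 at 0.630. With the length trend removed the 7 changes were still below 0 and ran from -0.57 to -0.07, with a median of -0.26. With the libraries rescaled to equal sums ZBTB10 passed 2-fold, at -1.11.

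In PC3 the same group was split, with 5 of its 8 genes at 1 FPKM or more above 0 and 3 below. PMEPA1 was 2-fold lower or more (log2 change -1.18, FPKM ratio 0.345), and TMPRSS2 was at -0.55. FKBP5 was at 0.41, ZBTB10 at 0.25 and NCOA4 at 0.13, each above 0 where 22Rv1 was below. EAF2 was at 0.69, from 0.881 to 2.04 FPKM. HERC3 was at 0.04 in PC3 and at -0.02 with the libraries rescaled to equal sums, and ELL2 was at -0.16 and at 0.18 with the length trend removed.

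The 4 luminal transcription factors did not share a line. FOXA1, the forkhead factor that opens chromatin for the receptor, was at 160 and 127 FPKM in 22Rv1 and at 29.2 and 22.1 in PC3. SPDEF, an ETS factor of secretory epithelium, was at 67.5 and 78.8 FPKM in 22Rv1 and at 17.4 and 19.9 in PC3. CREB3L4, a membrane-bound leucine zipper factor, was at 47.0 and 60.7 FPKM in 22Rv1 and at 6.32 and 7.37 in PC3. These 3 were higher in both 22Rv1 libraries, by 2.44, 1.91 and 2.80 log2 units in limma (adjusted p = 4.17e-06, 2.25e-05 and 3.14e-06).

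HOXB13, the homeobox factor of prostate lineage, was in the other order. It was at 86.5 and 67.0 FPKM in 22Rv1 and at 175 and 100.1 in PC3, the highest of the 30 genes in both PC3 libraries. Both PC3 values were above both 22Rv1 values, as for 34.2% of all genes tested. The limma difference was -0.79 log2 units (SE 0.19, adjusted p = 0.00546), and the untreated difference of -1.01 was just past 2-fold. The call was lost with no filter on low values (adjusted p = 0.0601) and with treatment left out of the fit (adjusted p = 0.0946), and the treated libraries differed by -0.57.

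With morusin, HOXB13 and FOXA1 were lower in both lines and SPDEF and CREB3L4 were higher in both, all under 2-fold. HOXB13 had log2 changes of -0.36 in 22Rv1 and -0.80 in PC3, and FOXA1 of -0.34 and -0.39. CREB3L4 had 0.36 and 0.19, and SPDEF 0.22 and 0.18, the SPDEF value in 22Rv1 turning to -0.01 when the libraries were rescaled to equal protein-coding sums. CREB3L4 and SPDEF have shorter transcripts (median 1557 and 1880.5 bases) than FOXA1 (2862) and HOXB13 (3467). Exons of CREB3L4 share 280 bases with SLC39A1 on the other strand, a gene at 26.3 to 70.8 FPKM. With the use of strand not given in the sources used here, reads of that stretch cannot be told apart.

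Among the surface and transport genes, FOLH1 and TMEFF2 were nearly confined to 22Rv1 in these 4 libraries. FOLH1 encodes prostate-specific membrane antigen, a carboxypeptidase used as an imaging target, and was at 46.8 and 50.3 FPKM in 22Rv1 and at 0.0211 and 0.0234 in PC3. TMEFF2, a transmembrane protein with follistatin-like domains, was at 26.2 and 24.7 FPKM in 22Rv1 and at 0.0134 and 0.0280 in PC3. The PC3 values correspond to an estimated 2.3 read pairs or fewer each, so no ratio is given. In limma the lines differed by 5.60 (adjusted p = 1.63e-07) and 4.70 (adjusted p = 3.28e-07) log2 units. FOLH1 shares 83.6% of its transcript, at 98.7% identity, with FOLH1B, which was at 2.99 and 4.02 FPKM in 22Rv1 and listed at 0 in PC3, so the split between the copies is uncertain.

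SLC45A3, or prostein, a sugar transporter family member, was at 82.2 and 54.1 FPKM in 22Rv1 and at 4.15 and 1.56 in PC3. STEAP1, a heme-binding membrane protein and antibody target, was at 97.8 and 115 FPKM in 22Rv1 and at 7.96 and 10.7 in PC3. STEAP2, its metalloreductase neighbour on chromosome 7, was at 52.0 and 31.0 FPKM in 22Rv1 and at 2.77 and 1.93 in PC3. All 3 were higher in both 22Rv1 libraries, 19.8-fold, 12.3-fold and 18.8-fold in FPKM without treatment. The limma differences were 4.22 (adjusted p = 5.32e-07), 3.39 (adjusted p = 8.95e-07) and 3.63 (adjusted p = 1.22e-06) log2 units. STEAP4, another relative on the same chromosome, was at 0.0695 FPKM or less in every library. STEAP1 shares 73.3% of its transcript with STEAP1B, which was at 0.188 FPKM or less.

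ABCC4, an exporter of cyclic nucleotides and prostaglandins, was higher in PC3. It was at 1.19 and 0.702 FPKM in 22Rv1 and at 6.08 and 4.0 in PC3, and differed by -1.62 log2 units in limma (SE 0.20, adjusted p = 8.87e-05). TRPM8, a cold-sensing channel, was listed at 0 in both 22Rv1 libraries and was at 0.291 and 0.0601 FPKM in PC3.

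Treated values of this group went in more than 1 direction. SLC45A3 and STEAP2 were lower in both lines, with log2 changes of -0.60 and -0.73 in 22Rv1 and -1.01 and -0.36 in PC3. SLC45A3 was just past 2-fold in PC3 and was at -0.96 when changes were centred on the median of all genes. ABCC4 was also lower in both lines (-0.36 and -0.50). STEAP1 was at 0.23 in 22Rv1, which turned to -0.01 with the length trend removed, and at 0.38 in PC3. STEAP1 and STEAP2, adjacent genes, thus had treated values on opposite sides of their untreated ones in both lines. FOLH1 was at 0.10 in 22Rv1 and at -0.09 with equal sums, and TMEFF2 was at -0.08 and at 0.04 with the length trend removed.

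Of the secreted and metabolic genes, AZGP1 and HPGD were higher in 22Rv1. AZGP1, a secreted zinc-binding glycoprotein, was at 32.1 and 52.3 FPKM in 22Rv1 and at 0.124 and 0 in PC3. HPGD, which degrades prostaglandins, was at 91.3 and 89.6 FPKM in 22Rv1 and at 20.6 and 13.8 in PC3. The limma differences were 5.31 (adjusted p = 4.71e-07) and 2.36 (adjusted p = 1.09e-05) log2 units. ACP3, prostatic acid phosphatase, was at 1.46 and 0.716 FPKM in 22Rv1 and at 0.115 and 0.0620 in PC3, and was too low for that test. Its untreated difference was 1.14 log2 units.

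SORD and TPD52 were higher in PC3. SORD, sorbitol dehydrogenase, was at 15.9 and 12.8 FPKM in 22Rv1 and at 26.3 and 26.5 in PC3. TPD52, a coiled-coil protein often overexpressed in prostate cancer, was at 18.3 and 20.2 FPKM in 22Rv1 and at 68.3 and 79.3 in PC3. The 22Rv1 libraries were the low ones for both genes, and the limma differences were -0.84 (adjusted p = 0.00511) and -1.88 (adjusted p = 2.5e-05) log2 units. Nearly identical sequence, 48.6% of the SORD transcript, lies in SORD2P, which was at 4.21 to 6.00 FPKM, so SORD's own level is uncertain. GUCY1A1, a nitric oxide receptor subunit, was at 0.0253 FPKM or less in every library.

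AZGP1 had the highest change of the 30 genes in treated 22Rv1, at 0.69 log2 units (FPKM ratio 1.63). A pseudogene with a partly shared sequence, AZGP1P1, was at 0.681 and 2.69 FPKM in these libraries. ACP3 was at -0.52 and SORD at -0.29 in 22Rv1, while HPGD (-0.03) hardly differed. TPD52 was at 0.13 in 22Rv1, turning to -0.06 with equal sums, and at 0.21 in PC3. In PC3 HPGD was at -0.54, and SORD was at 0.01 and turned to -0.08 with equal sums.

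Over all roles, the 25 genes at 1 FPKM or more in 22Rv1 had 9 values above 0 and 16 below after morusin, with a median of -0.29 against -0.01 for all genes. None was past 2-fold in either direction, where 3.48% of 13361 genes were so in the higher and 1.02% in the lower direction. With equal sums 7 were above 0 and 18 below, and the median of all genes moved to -0.18, so the 25 genes' median of -0.45 then lay 0.26 below it. Among all genes past 2-fold in 22Rv1, 77.4% were higher as deposited and 42.1% with equal sums. Counting error alone, for the 24 genes with at least 50 estimated pairs in both libraries, was 0.0157 to 0.244 log2 units with a median of 0.0432. It does not include differences between cultures.

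In PC3, 19 genes reached 1 FPKM, with 10 above 0 and 9 below and a median of 0.01 against -0.05 for all genes. PMEPA1 and SLC45A3 were at least 2-fold lower and none was 2-fold higher, where 2.64% of 12907 genes were lower and 1.24% higher. With a pseudocount of 5 in place of 1, PMEPA1 was at -0.63 and SLC45A3 at -0.48, and neither passed. Without the length trend they were at -0.96 and -0.90. Among all genes past 2-fold in PC3, 31.9% were higher as deposited and 23.7% with equal sums.

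**Figure D3:**
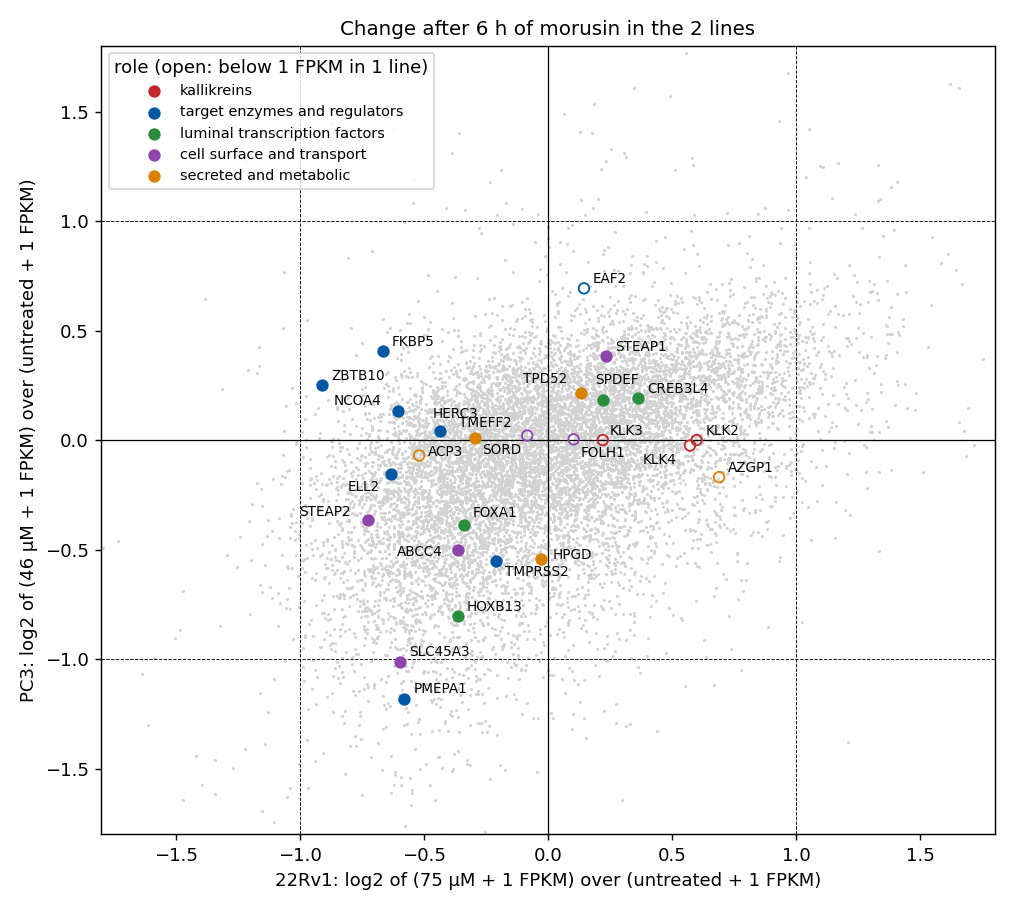
Log2 change of FPKM + 1 after 6 h of morusin in 22Rv1 (x axis, 75 µM) and PC3 (y axis, 46 µM), 1 library per group; grey points are all genes, coloured points the genes described by role, open where a gene is below 1 FPKM in 1 line, and dashed lines mark 2-fold. PMEPA1 and SLC45A3 lie low in both lines, and FKBP5 and ZBTB10 lie in the upper left quadrant.

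For the 18 genes at 1 FPKM or more in both lines, the changes are set side by side without a comparison of doses. TMPRSS2, PMEPA1, ELL2, HOXB13, FOXA1, SLC45A3, STEAP2, ABCC4 and HPGD, 9 in all, were below 0 in both lines, ELL2 turning in PC3 as given above. SPDEF, CREB3L4, STEAP1 and TPD52 were above 0 in both, with the turns already given for SPDEF, STEAP1 and TPD52 in 22Rv1. FKBP5, ZBTB10, HERC3, NCOA4 and SORD were below 0 in 22Rv1 and above it in PC3, HERC3 and SORD turning in PC3 with rescaling. None was above 0 in 22Rv1 and below it in PC3.

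A response common to both lines was also tested, by the treatment term of the same limma fit, whose error again counts unlike changes of the lines. None of the 24 was called at an adjusted p under 0.05, where 0.351% of 13980 genes were called higher and 0.236% lower. The lowest adjusted p-values from limma were 0.127 for PMEPA1 (-0.88 log2 units, SE 0.22), 0.135 for SLC45A3 (-0.80, SE 0.21), 0.179 for HOXB13 (-0.58, SE 0.19) and 0.228 for STEAP2 (-0.55, SE 0.22). Those 4 genes had an unadjusted p under 0.05, as did 18.5% of all genes tested. All 4 were lower in both treated libraries. When libraries were rescaled to equal sums, limma called the 4 genes lower, with adjusted p = 0.00127 for PMEPA1 (-1.02), 0.00363 for SLC45A3 (-0.94), 0.00922 for HOXB13 (-0.73) and 0.0465 for STEAP2 (-0.68). The same rescaling moved the calls over all genes from 49 higher and 33 lower to 300 higher and 1234 lower. It also raised the weight of the spread shared across genes, from 7.95 to 50.8 prior degrees of freedom. The parts of that weight and of the rescaled values in the lower p-values were not told apart.

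Change with morusin went with transcript length in both lines. Over 11348 protein-coding genes in 22Rv1 Spearman's rho between median transcript length and log2 change was -0.544, and over the 25 genes it was -0.678. In PC3 it was -0.419 over 11429 genes and -0.34 over 19. Genes share their libraries and are not independent, so no p is given. In 22Rv1, 6 of the 8 genes described that are under 2000 bases were above 0, as were 73.5% of all such genes. Of the 17 longer ones, 3 were above 0, against 31.9% of all longer genes. KLK4 (914 bases) is the shortest of the 25 and ELL2 (6046) the longest. Without the trend, the changes farthest from 0 in 22Rv1 were 0.72 for KLK2 and 0.57 for AZGP1 above it, and -0.69 for STEAP2, -0.61 for ACP3 and -0.57 for NCOA4 below it. The part of length in the changes was not tested beyond removing the trend.

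**Figure D4:**
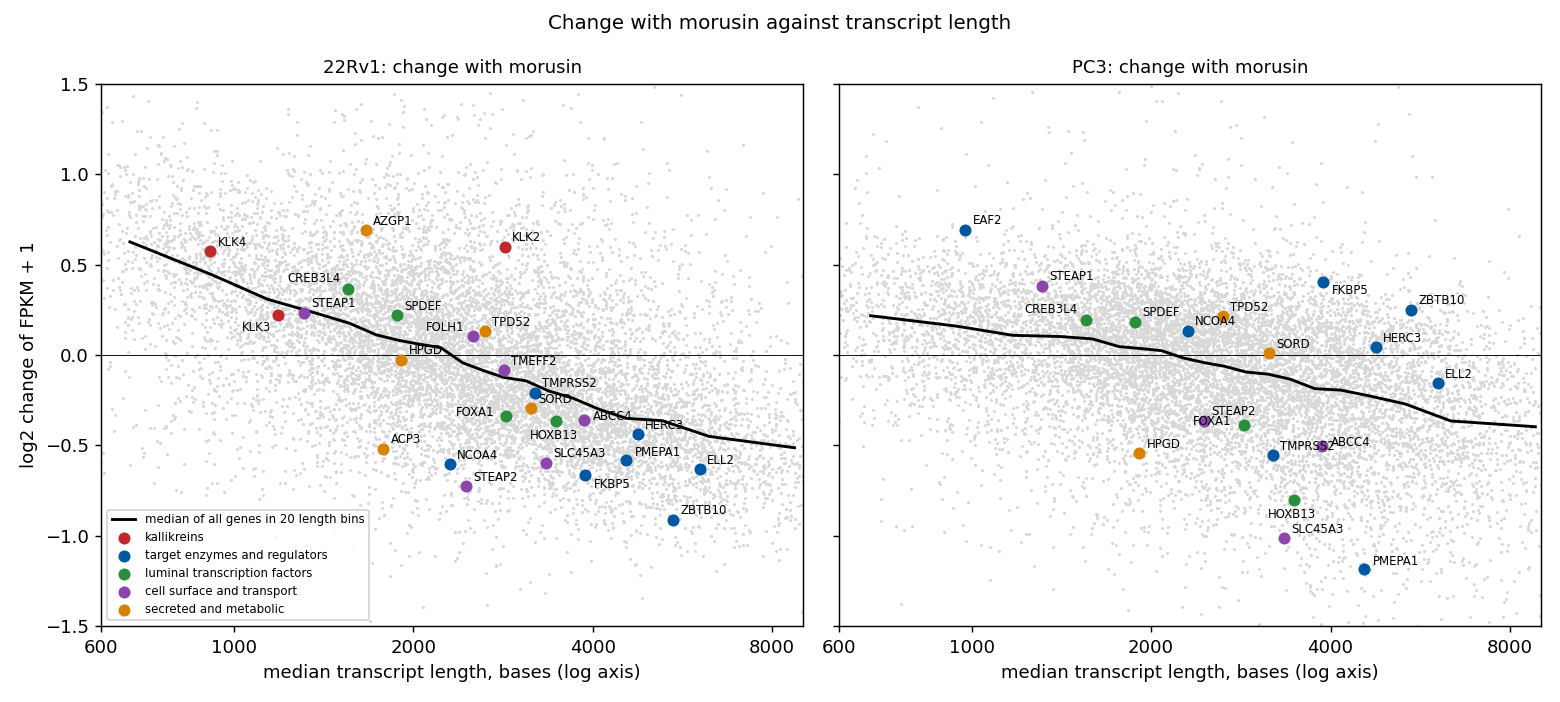
Log2 change of FPKM + 1 with morusin against median transcript length (log axis, bases) in 22Rv1 and PC3; grey points are protein-coding genes, the line joins medians of 20 length bins and coloured points are the genes described by role. In 22Rv1 the 7 target enzymes and regulators lie below the line and KLK2 and AZGP1 above it.

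A list of 70 other genes described as androgen-responsive was read the same way. Untreated, 15 of the 68 at 1 FPKM or more passed 2-fold toward 22Rv1 (22.1%, against 19.8% of all genes) and 17 toward PC3 (25%, against 19.2%), and the median was -0.01 log2 units. PLPP1, a lipid phosphatase, was at 90.4 FPKM in 22Rv1 and 5.91 in PC3, whereas AKAP12, a kinase scaffold, was at 2.27 and 72.3. With limma, 20 of 68 were higher in 22Rv1 (29.4%, against 36.1% of all genes) and 26 in PC3 (38.2%, against 28.3%).

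In treated 22Rv1, 48 of 63 genes of that list were below 0 (76.2%, against 50.6% of all genes), with a median of -0.26, and 3 were at least 2-fold lower (4.76%, against 1.02%). Most of these 63 are long, 47 of them at 2000 bases or more, and with the length trend removed 45 were below 0 with a median of -0.12. Among those past 2-fold were SLC38A2, an amino acid transporter (131 to 58.4 FPKM), and ABHD2, a lipid hydrolase (27.5 to 12.9). In treated PC3, 38 of 68 were above 0 (median 0.05) and 30 were below (44.1%, against 55.8% of all genes). Of the 68, 52 are at 2000 bases or more, and with the length trend removed 43 were above 0 with a median of 0.08. As deposited, 3 were at least 2-fold higher (4.41%, against 1.24% of all genes). They were ADAMTS1, a secreted protease (7.79 to 23.6 FPKM), INSIG1, a brake on sterol synthesis (2.14 to 7.31), and SAT1, which breaks down polyamines (19.0 to 46.9). None of the 68 was called for the shared response with limma.

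Of 21 receptor coregulators and chaperones, 7 passed 2-fold toward 22Rv1 in the untreated libraries (33.3%, against 19.8% of all genes) and 1 toward PC3 (4.76%, against 19.2%). With limma over all 4 libraries the shares lay near those of all genes. It called 8 higher in 22Rv1 (38.1%, against 36.1%) and 5 in PC3 (23.8%, against 28.3%), with a median difference of 0.03 log2 units. GATA2, a partner of the receptor on chromatin, was at 76.1 FPKM in 22Rv1 and 10.4 in PC3, and NCOA3, a coactivator, at 5.41 and 19.9. None passed 2-fold with morusin in either line. MED1, the Mediator subunit that contacts nuclear receptors, was at 19.96 and 10.6 FPKM in 22Rv1 and at 19.1 and 20.4 in PC3. TRIM24, a chromatin reader, was at 31.1 and 18.7 FPKM in 22Rv1 and at 6.66 and 7.63 in PC3.

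Of 19 genes of androgen synthesis and breakdown, 8 reached 1 FPKM in an untreated library. SRD5A3, a steroid reductase family member, was at 11.1 FPKM in untreated 22Rv1 and 2.88 in PC3. CYP17A1, HSD3B1, HSD3B2 and SRD5A2, which make androgens from precursors, were listed at 0 in every library. Other genes of the list were detected. SRD5A1 was at 4.58 FPKM in untreated 22Rv1 and 3.30 in PC3, and AKR1C3 at 0.950 and 3.09. NR3C1, the glucocorticoid receptor, was at 0.209 and 0.225 FPKM in 22Rv1 and at 6.85 and 5.82 in PC3. FKBP5 and NR3C1 stood in opposite order between the lines. Whether the glucocorticoid receptor has a part in the FKBP5 levels was not tested.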

How the data were processed

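Total RNA of 4 libraries was sequenced as paired reads, per the labels. The authors deposited FPKM values for 60617 Ensembl IDs. Per the submitters' processing notes, Trimmomatic, HISAT2, StringTie and GRCh38 were used, with versions, annotation release and strand setting not given in the sources used here. FPKM is relative to each library's total and to transcript length, so abundant or short transcripts can move other values. Symbols came from a gene name table (60261 IDs matched, 42000 with a symbol), and where a symbol had several IDs the one with the highest mean was used. Positions and transcript lengths came from GENCODE 29 and promoter windows from RefSeq, and the authors' annotation may differ.

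Changes are log2 of (FPKM + 1) ratios, which understate changes of low genes, for genes at 1 FPKM or more in at least 1 library compared. Groups with 1 library each were described by size, with a threshold of 2-fold. Across all 4 libraries limma 3.58.1 (R 4.3.3, prior variance with a mean trend) was fitted to log2(FPKM + 1) with terms for line and treatment. The line pairs the libraries, per the labels. P-values were Benjamini-Hochberg adjusted over all genes at 0.05. The fit was tested on simulated data. Alternatives were other pseudocounts (0.1 and 5), rescaling each library to the mean sum over all or over protein-coding genes, centring, other filters, no mean trend, no block and no treatment term. Depth was estimated from the steps of low values of single-exon genes (tolerance 1.5%). Only 57 to 81 of the 1535 to 1825 values used in a library fell on the step, so depths and counting errors are rough, and counting errors cover counting only. Near-identical copies were found with BLAST 2.17.0 (95% identity or more over at least 150 bases).

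The genes described and the other lists were chosen with earlier results of these data known. All genes described are named. From other lists the text names up to 4 genes per comparison with the largest change at 5 FPKM or more, the near-identical copies, other kallikreins and NR3C1. CYP17A1, HSD3B1, HSD3B2, SRD5A2, SRD5A1 and AKR1C3 were named after their values were seen. The receptor's own gene was not analysed here, and a few genes of the other lists are not reported. Python 3.11.15 with numpy 2.4.6, pandas 2.3.3 and scipy 1.17.1 was used.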

Additional observations from a re-analysis of the deposited data

Results flagged for a closer look

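FKBP5 and ZBTB10 stood out because their values after morusin lay on opposite sides of the untreated ones in the lines. FKBP5 was at -0.66 log2 units in 22Rv1 and 0.41 in PC3, a difference of -1.07. ZBTB10 was at -0.91 in 22Rv1 and 0.25 in PC3, a difference of -1.16. FKBP5 fell short of 2-fold apart with a pseudocount of 5 (-0.97) and with the length trend removed (-0.99), where ZBTB10 was at -1.05 and -1.0. Each line has 1 untreated and 1 treated library, so the difference between the lines was not tested, and dose and medium differ with the line. Changes of opposite sign at least 2-fold apart were found for 2 of the 18 genes described that were at 1 FPKM or more in both lines, and for 324 of all 11240 such genes (2.88%).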

How the results depend on the processing

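No result changed direction as a called value. The line difference between untreated libraries had a median over the genes described of 2.88 with a pseudocount of 0.1, 1.91 with 5, 2.31 centred, 2.0 with no filter and 2.71 at 5 FPKM or more, and 1 gene was 2-fold higher in PC3 with a pseudocount of 5. In 22Rv1 the median change was -0.13 with a pseudocount of 5, -0.45 and -0.46 with equal sums over all and over protein-coding genes, -0.09 with no filter and -0.08 without the length trend, and 1 gene (ZBTB10) was 2-fold lower under each rescaling. In PC3 1 gene (EAF2) was 2-fold higher with a pseudocount of 0.1. The count 2-fold lower in PC3 was 0 with a pseudocount of 5, 1 centred, 1 at 5 FPKM or more and 0 without the length trend, and the median was -0.12 with equal protein-coding sums and 0.13 without the length trend. Over all genes the shared response had 18 higher and 15 lower calls by limma with a pseudocount of 5, 300 and 1234 with equal sums, 268 and 1481 with equal protein-coding sums, and 29 higher without the mean trend; 4 of the genes described were called lower under each rescaling. With no filter limma made 0 calls either way (2323 genes at an unadjusted p under 0.05). Without the pairing by line (no replicate block) it also made 0 calls either way (54 genes at an unadjusted p under 0.05). Of single-gene values, 849 kept their side of the threshold, 17 no longer passed and 11 newly passed. The comparison of the treated libraries and the removal of the length trend were chosen after seeing the data. With 1 library per group no replicate could be left out, and genes under about 1 FPKM rest on few read pairs.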

Other observations

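Markers of other cell types differed between the lines. Of 8 neuroendocrine markers, SYP was at 20.9 FPKM in untreated 22Rv1 and 0.399 in PC3, and SCG3 at 16.3 and 0. The summed level of the 8 was 71.0 and 72.6 FPKM in untreated and treated 22Rv1 and 19.3 and 21.7 in PC3. Of 5 basal prostate markers, KRT5 was listed at 0 in every library, and KRT15 was at 0.785 and 1.24 FPKM in 22Rv1 and at 8.84 and 15.7 in PC3. Of 6 leukocyte markers, CD68, a lysosomal protein that epithelial lines can also make, was at 26.0 and 39.9 FPKM in PC3, and PTPRC was at 0.0520 or less in every library.

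Of a list of 9 genes holding the glucocorticoid and related receptors and glucocorticoid-responsive genes, 8 reached 1 FPKM in an untreated library. Of these, 3 were at least 2-fold higher in untreated 22Rv1 (37.5%, against 19.8% of all genes) and 2 in untreated PC3 (25%, against 19.2%). With limma over all 4 libraries, 3 of the 8 were called higher in 22Rv1 (37.5%, against 36.1%). In PC3, limma called 4 higher (50%, against 28.3%). SGK1, a kinase that regulates ion transport, was at 0.0130 and 0.148 FPKM in 22Rv1 and at 6.62 and 6.45 in PC3. ZBTB16 was at 24.7 and 18.5 FPKM in 22Rv1 and listed at 0 in PC3. DUSP1, a phosphatase that switches off MAP kinases, was at 4.24 and 4.67 FPKM in 22Rv1 and at 5.71 and 57.9 in PC3.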
